A study of Canis lupus familiaris with 13 samples.

Results

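PPP3CB and PPP3CC encode alternative catalytic subunits of calcineurin, and the 3 probe sets of a canine expression array that carry their gene symbols were described here in dog hearts. They were found by matching the array annotation to both symbols, which gave 2 genes of the 6540 genes on the array with a single symbol. PPP3CB had 2 probe sets (1604261_at and 1605601_at) and PPP3CC had 1 (1604947_at). All 3 passed the filter on low values. Heart RNA was hybridised to 13 arrays, 1 for each separately named sample. There were 4 Boxers (1 to 4) and 3 Dobermans (K, L and R) labelled with dilated cardiomyopathy (DCM), and 2 groups of mongrel dogs, 3 labelled as pacing (LV01, LV02 and LV04) and 3 as control (P1, P4 and P9). Dilated cardiomyopathy is an enlargement of the ventricles with poor contraction, and pacing drives the heart beat through an electrode. The labels gave neither age, heart chamber, pacing rate nor duration, and no healthy Doberman or Boxer was among the samples, so breed and disease cannot be told apart in any comparison of a breed with mongrels.

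Calcineurin is a phosphatase switched on by calcium and calmodulin. Each enzyme pairs a catalytic A subunit (alpha from PPP3CA, beta from PPP3CB, gamma from PPP3CC) with a regulatory B subunit (PPP3R1 in most tissues, PPP3R2 in testis), and its best known substrates are the NFAT transcription factors, which enter the nucleus once dephosphorylated. In mouse heart muscle, calcineurin and NFAT activity drives hypertrophic growth, and the beta form is needed for much of that response. The gamma form was first described in testis and is also found in other tissues.

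PPP3CC signal was about 2 times higher in both breeds with DCM than in either group of mongrels. Of these differences, that of the Boxers from the controls did not pass after adjustment. PPP3CB did not show that pattern. Its brighter probe set was much lower in 2 of the 3 Dobermans and its dimmer one was not, and the Boxers overlapped with the controls on both. In bulk tissue, a change in RNA per cell and a change in the number of cells that express a gene cannot be told apart.

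Signals are MAS5 values on a linear scale, which the authors scaled to a common level on each array, and differences between groups are on the log2(signal + 16) scale. The arrays differed in quality. The GAPDH control probe sets give a 3'/5' ratio that rises with RNA degradation. It was 3.62 for Doberman R, 2.10 for L and 1.08 for K, while no array of the other groups had a ratio below 0.967 or above 1.09. The actin control probe sets gave a log2 3'/5' ratio of -1.90 in K, -1.92 in L, -0.08 in R and -1.97 to -1.56 in the Boxers. In the controls it was -3.17 to -2.34 and in the paced mongrels -2.56 to -2.20. Every DCM array thus lay above every mongrel array on this ratio, as on PPP3CC. Its part in the PPP3CC difference was not tested. Median signal was 208 to 234 on the 5 arrays of Dobermans L and R and the paced mongrels, and 132 to 160 on the remaining 8. Spike-in hybridisation controls averaged 9046 to 19673 on the former and 3721 to 5910 on the latter. Of 9 cardiomyocyte markers, 8 were on the array, and their summed signal was 165071 to 239702 in the controls, 144144 to 164866 in the paced mongrels, 170033 to 190888 in the Boxers and 181546 to 347845 in the Dobermans. Of these 8, 1 passed in the Dobermans against the controls (limma, adjusted p under 0.05), beside 25.9% of all tested genes. This was RYR2, at -1.10 ± 0.21 (log2, SE, adjusted p = 0.00746), while the median of the 8 was 0.45. All 4 skeletal muscle markers lay under the filter level on average (a signal of 108).

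PPP3CC encodes the gamma catalytic subunit. Its signal was 1094 in control P1, 963 in P4 and 1230 in P9. In the paced mongrels it was 1247 in LV01, 968 in LV02 and 731 in LV04. The 6 mongrel arrays thus covered one range, and the paced samples spread more widely than the controls. The Doberman signals were 1926 (K), 2092 (L) and 2876 (R). It was 2202, 2472, 2357 and 1832 in Boxers 1 to 4. Every one of the 7 hearts with DCM lay above every mongrel heart, with a gap from 1247 (LV01) to 1832 (Boxer 4). Of all 14302 tested probe sets, 0.552% had all 7 of these arrays above all 6 mongrel arrays, and 0.475% had them all below.

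**Figure D1:**
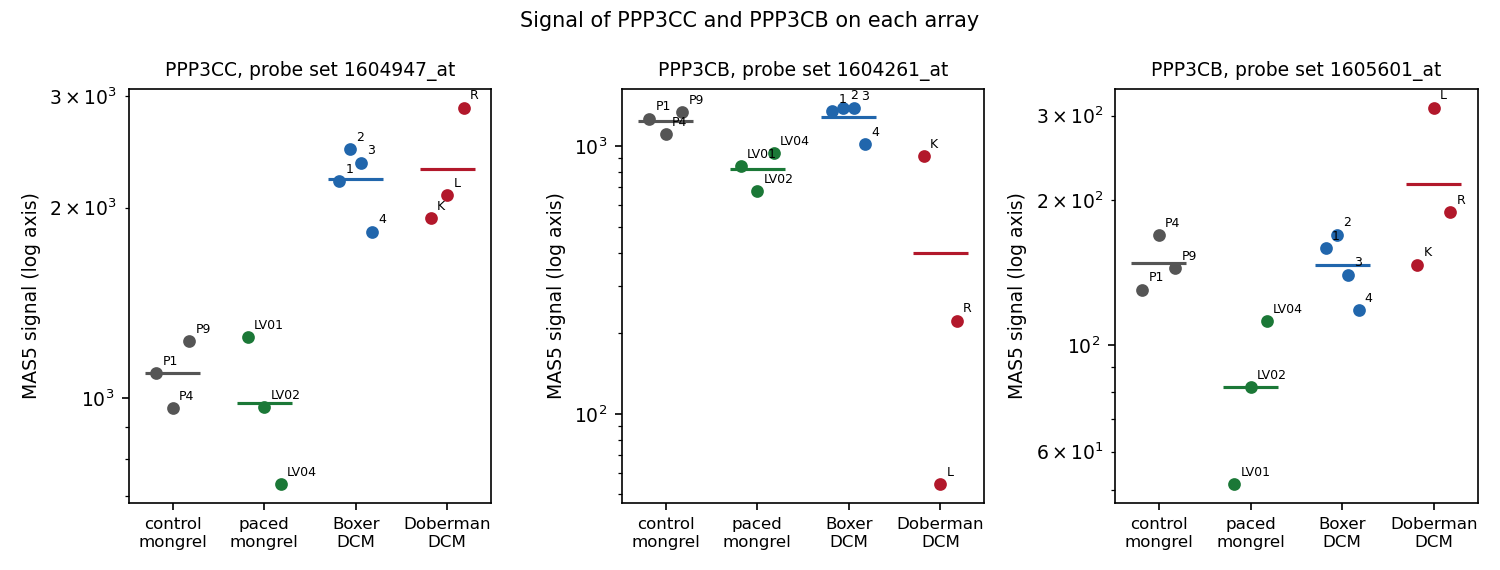
MAS5 signal (log axis) of the PPP3CC probe set and of both PPP3CB probe sets on each of the 13 arrays, by group; each point is 1 sample, named beside it, and the horizontal line is the group mean of the signal. PPP3CC is at or above 1832 in all DCM hearts and at or below 1247 in all mongrels, while the brighter PPP3CB probe set falls to 54.7 in Doberman L and 223 in R.

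The mean PPP3CC signal of the Dobermans was 2298 ± 507 (SD, n = 3) and that of the Boxers 2215 ± 279 (SD, n = 4). For the controls it was 1096 ± 134 (SD, n = 3) and for the paced mongrels 982 ± 258 (SD, n = 3). In that order, the first pair of neighbours and the last pair did not differ beyond their spread. Against the controls, PPP3CC rose in the Dobermans by 1.04 ± 0.22 on the log2 scale (SE), which is 2.06-fold (limma, adjusted p = 0.0101). In that comparison, 14.3% of all tested probe sets passed as higher and 11.2% as lower, and 20.9% had every Doberman array above every control array. The median of all tested probe sets was itself 0.19 above the controls in the Dobermans, and relative to that median PPP3CC was 0.85 higher.

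In the Boxers the difference from the controls was 1.00 ± 0.21 (log2, SE), a ratio of 2.0, with a 95% interval of 0.56 to 1.45. It had an unadjusted p of 0.000278 and did not pass after adjustment (limma, adjusted p = 0.228). It ranked number 17 by p among 14302 probe sets, of which 0.014% passed as higher 7.4% had an unadjusted p under 0.05, and 6.32% had every Boxer array above every control array. The adjusted p ran from 0.012 to 0.605 over the alternatives. It passed in 2 of 16, the fit of these groups alone (0.0325) and the fit with array weights (0.012). The value itself lay between 0.92 and 1.09 in all 16.

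Pacing was not accompanied by a PPP3CC difference that passed. All paced arrays had a higher median signal than all controls, so pacing and array cannot be told apart in this comparison, for any gene. The paced mongrels stood at -0.18 ± 0.22 (log2, SE) relative to the controls, with a 95% interval of -0.66 to 0.30 and an adjusted p of 0.629, where 12.2% of all tested probe sets passed in either direction. After median centring, which moved the median of all probe sets to -0.45, the value was -0.69 with an adjusted p of 0.0418. Without LV04 it was 0.01.

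Both breeds differed from the paced mongrels. PPP3CC was 1.22 ± 0.22 higher (log2, SE) in the Dobermans than in the paced mongrels, or 2.34-fold (adjusted p = 0.00253, with 13% of probe sets called higher and 16.7% without overlap). In the Boxers it was 1.18 ± 0.21 higher, or 2.27-fold (adjusted p = 0.00278, with 4.85% called higher and 16.4% without overlap). The Boxer difference passed in all 16 alternatives, between 0.99 and 1.76. That of the Dobermans passed in 14 of 16 and missed in the fit of these 6 arrays alone (adjusted p = 0.0531) and with the GAPDH ratio as a covariate (0.0729). These comparisons share the paced arrays, as the earlier ones share the controls.

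The breeds themselves were compared directly. PPP3CC differed by 0.04 ± 0.21 (log2, Dobermans minus Boxers, SE), with a 95% interval of -0.41 to 0.49 and an adjusted p of 0.89, where 35.4% of probe sets passed in either direction. The sign turned in 5 of 17 alternatives.

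The comparison was also made among arrays of like median signal. Within the 8 arrays of lower median signal, PPP3CC was 0.81 higher (log2) in Doberman K than in the controls and 1.00 higher in the Boxers. Within the 5 arrays of higher median signal, it was 1.34 higher in Dobermans L and R than in the paced mongrels. The paced mongrels lie wholly in the higher set, and the Boxers and controls wholly in the lower. Differences of the paced mongrels from either group cannot be told apart from those of the arrays. Doberman K had a GAPDH ratio within the range of the controls and Boxers, but an actin ratio above all controls. With L and R left out, its value of 0.81 had an adjusted p of 0.133, a test of 1 array that is assumed to vary like the other groups. The Doberman difference from the controls also missed the threshold after median centring (0.60, adjusted p = 0.0695), in the fit of these 6 arrays alone (adjusted p = 0.112) and with the GAPDH ratio as a covariate (0.76, adjusted p = 0.200). It passed in the other 12 of 16 alternatives, among them those without any single control or Doberman.

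**Figure D2:**
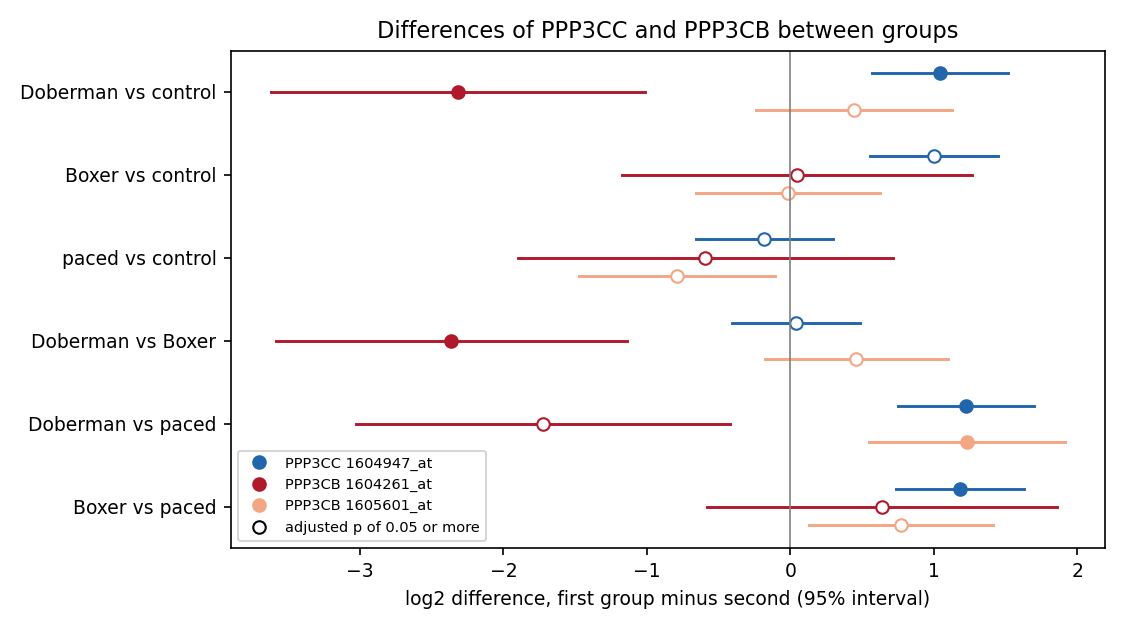
Log2 difference of each member probe set in the 6 comparisons, first-named group minus second, with its 95% interval from the limma fit; filled points have an adjusted p under 0.05. PPP3CC lies near 1 for either breed against either mongrel group and near 0 between the breeds and between the mongrel groups.

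Markers of other cells were set beside PPP3CC. The summed signal of 4 fibroblast genes was 18157 to 26476 in the Dobermans and 15804 to 25362 in the Boxers, against 12212 to 14948 in the paced mongrels and 11786 to 19036 in the controls. That of 3 smooth muscle genes was 13592 to 22918 in the Dobermans, 15427 to 20793 in the Boxers, 7400 to 12468 in the paced mongrels and 8803 to 18741 in the controls. Both sums, like PPP3CC, were higher in every DCM heart than in every paced heart, but both overlapped with the controls. Of all single probe sets tested, 16.7% had every Doberman array above every paced array, and 16.4% had every Boxer array above them. The fibroblast sum was mostly DCN, the matrix proteoglycan decorin, with a mean signal of 16792 in the Dobermans and 8813 in the paced mongrels. COL3A1, a collagen, stood at -1.08 ± 0.71 in the Dobermans relative to the paced mongrels (log2, SE, adjusted p = 0.281). Against the controls, 1 of 4 fibroblast genes passed in the Dobermans (DCN, higher) and 0 of 4 in the Boxers, beside 25.9% and 0.0572% of all tested genes in either direction. The smooth muscle genes gave 0 of 3 in both. The 6 macrophage genes summed to 2003 to 5407 in the Dobermans and 2931 to 8050 in the Boxers. They summed to 2076 to 3634 in the controls and 2118 to 2546 in the paced mongrels. In the Dobermans against the controls, 1 of the 6 passed as higher and 1 as lower. These were TYROBP (1.09 ± 0.28, adjusted p = 0.0185) and LYZ (-1.20 ± 0.38, adjusted p = 0.0360), so the sum hides opposite changes. The 3 lymphocyte genes, of interest because T cells use calcineurin, summed to 889 to 1727 in the Dobermans and 401 to 754 in the Boxers, against 522 to 706 in the controls and 752 to 905 in the paced mongrels. Its members did not move together. CD3E, of the T cell receptor complex, was higher in the Dobermans (1.29 ± 0.30, adjusted p = 0.0133) and lower in the paced mongrels (-2.89 ± 0.30, adjusted p = 0.000267) than in the controls. NKG7, of cytotoxic cells, was higher in the paced mongrels (2.37 ± 0.39, adjusted p = 0.00309). The part of these cells in the PPP3CC difference was not tested.

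PPP3CB encodes the beta catalytic subunit, and its probe sets disagreed. On the brighter one, 1604261_at, the signal was 1263, 1107 and 1340 in controls P1, P4 and P9. It was 840 in LV01, 678 in LV02 and 940 in LV04 among the paced mongrels. In Boxers 1 to 4 it was 1348, 1388, 1387 and 1013. The Boxers thus overlapped with the controls, and the paced arrays lay below all of both. Among the Dobermans it was 917 for K, 54.7 for L and 223 for R. Doberman K fell within the range of the paced mongrels, and L and R lay far below all other arrays.

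The mean of the Boxers on this probe set was 1284 ± 182 (SD, n = 4), of the controls 1236 ± 119 (SD, n = 3), of the paced mongrels 819 ± 132 (SD, n = 3) and of the Dobermans 398 ± 457 (SD, n = 3). The Boxers and controls did not differ beyond their spread. In the Dobermans it was 4.98-fold lower than in the controls (-2.32 ± 0.61 on the log2 scale, SE, limma, adjusted p = 0.0191), in a comparison where 11.2% of probe sets passed as lower and 12.6% had no overlap in that direction. Against the Boxers it was 5.14-fold lower (-2.36 ± 0.57, adjusted p = 0.0102, with 13.6% called lower and 11.9% without overlap), and against the paced mongrels it stood at -1.72 ± 0.61 (adjusted p = 0.0528). These sizes rested on L and R. Doberman K alone differed by -0.42 from the controls, -0.47 from the Boxers and 0.17 from the paced mongrels. Against the controls, the value was nearly as large without P1 (-2.30), P9 (-2.26) or R (-2.28) and smaller without L (-1.40), and the adjusted p of these fits was 0.0551, 0.0532, 0.0534 and 0.0530. With the GAPDH ratio as a covariate the values were -1.16 against the controls and -1.16 against the Boxers, with adjusted p of 0.421 and 0.380.

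The Boxers were 0.05 ± 0.57 from the controls (log2, SE) on this probe set, and the wide interval, -1.18 to 1.27, carries the spread of the Dobermans through the shared error. The paced mongrels stood at -0.59 ± 0.61 against the controls (adjusted p = 0.555) although the arrays did not overlap, as was true of 18% of probe sets in that direction. Fitted on these 6 arrays alone, without the Dobermans, the same value had an adjusted p of 0.0312. The Boxers likewise lay 0.64 ± 0.57 above the paced mongrels (adjusted p = 0.467, and 0.0137 in the fit of these groups alone).

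The dimmer PPP3CB probe set, 1605601_at, was 130, 169 and 145 in controls P1, P4 and P9, and 159, 170, 140 and 118 in Boxers 1 to 4. In the paced mongrels it was 51.4, 81.8 and 112 (LV01, LV02 and LV04), and in Dobermans K, L and R it was 147, 311 and 189. Here L and R were the highest of all arrays, the opposite of the brighter probe set, and the paced mongrels were again below the controls and the Boxers. The Dobermans were 0.44 ± 0.32 above the controls (adjusted p = 0.297), and the Boxers were at -0.02 ± 0.30 (adjusted p = 0.996). The paced mongrels were at -0.79 ± 0.32 relative to the controls (adjusted p = 0.120), and the Boxers at 0.77 ± 0.30 relative to the paced mongrels (adjusted p = 0.0869). Of its 6 comparisons only that of the Dobermans with the paced mongrels passed, at 1.23 ± 0.32 or 2.35-fold higher (adjusted p = 0.0144). It was lost without L (0.95, adjusted p = 0.0505), without LV01 (0.99, 0.0615) and without L and R together (0.78, 0.181), in the fit of these 6 arrays alone (0.134) and with the GAPDH ratio as a covariate (1.04, 0.180). The mean paced signal of 81.7 lay under the filter level, so the size of that difference depends on the pseudocount: it was 1.39 with 1 and 0.92 with 64.

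**Figure D3:**
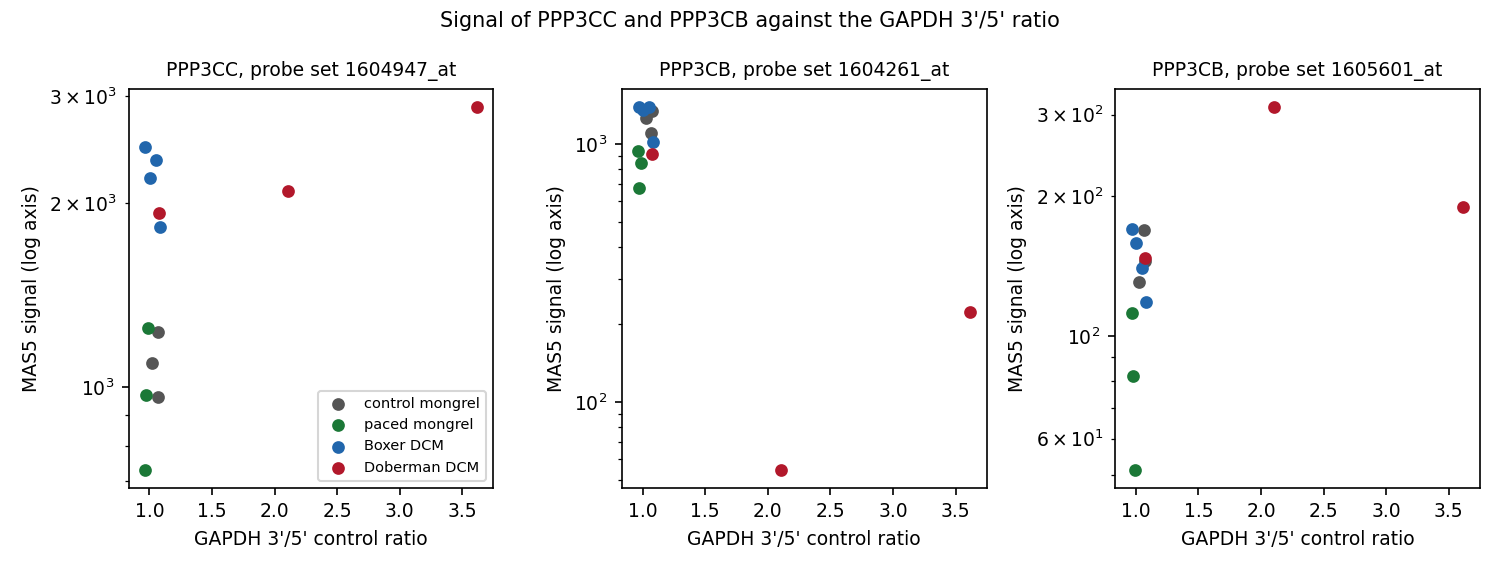
MAS5 signal (log axis) of the 3 member probe sets against the GAPDH 3'/5' control ratio of the same array, 1 point per sample, coloured by group. Dobermans L (2.10) and R (3.62) stand apart on the x axis; there PPP3CB 1604261_at is at its lowest, PPP3CB 1605601_at at its highest, and PPP3CC at 2092 and 2876 beside Boxers of 1832 to 2472 with ratios near 1.

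The genes were also followed together within each array, as the log2 signal of PPP3CC minus that of PPP3CB 1604261_at. A level of one probe set says nothing against that of another, so only its change between groups is described. The difference of the 3 controls was -0.17 ± 0.05 (SD, n = 3), and that of the Boxers 0.78 ± 0.07 (SD, n = 4). It was narrower within these groups than either gene alone, since PPP3CC had SDs of 0.17 and 0.19 there and PPP3CB of 0.14 and 0.22. From controls to Boxers it was 0.96 higher (exact permutation test, two-sided, p = 0.0286, the smallest that 4 arrays against 3 can give, adjusted p = 0.0571 over 4 comparisons). Against the dimmer PPP3CB probe set the same change was 1.02 (exact p = 0.0286, adjusted p = 0.114). With that probe set the SD of the difference was 0.31 in the controls, wider than that of either gene alone (0.17 and 0.17). In the Boxers it was 0.11, narrower than either (0.19 and 0.21).

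The Doberman values were 1.06 for K, 4.90 for L and 3.60 for R. It was 0.56, 0.50 and -0.35 in paced mongrels LV01, LV02 and LV04. All 3 Dobermans lay above all controls, 3.36 higher on average, with an exact permutation p of 0.1, the smallest that 3 against 3 can give. Against the dimmer probe set that mean change was 0.60 (exact permutation p = 0.3), and Doberman L, at 2.69, lay below controls P1 and P9, at 2.92 and 2.96. The paced mongrels were 0.41 above the controls (exact permutation p = 0.4). From Boxers to Dobermans the change was 2.40 against the brighter probe set (exact permutation p = 0.0286, adjusted p = 0.0571) and -0.42 against the dimmer one (adjusted p = 0.286).

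**Figure D4:**
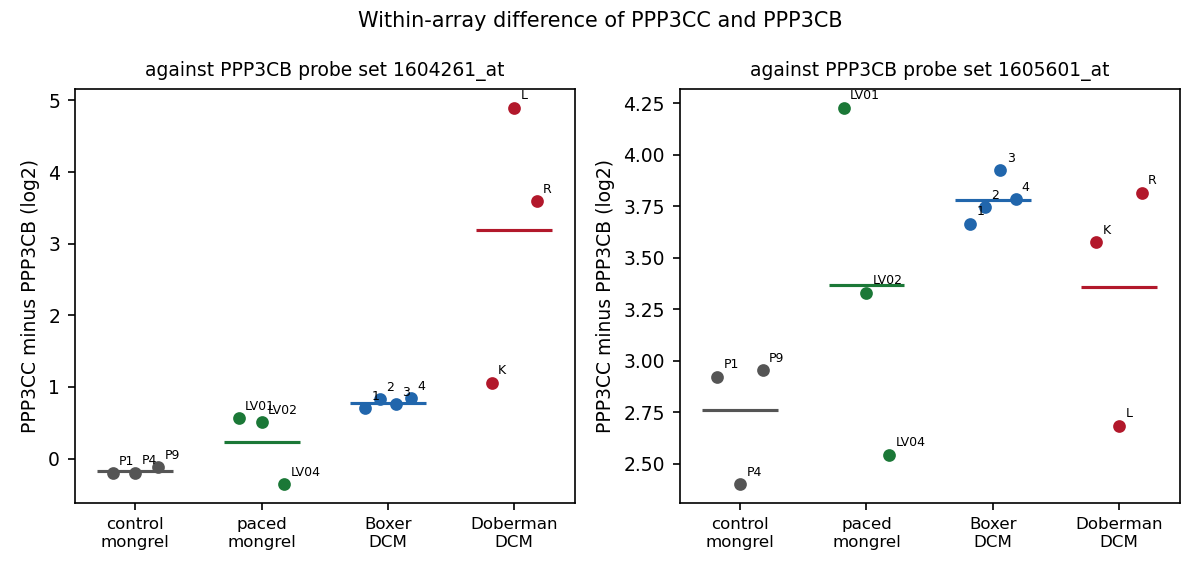
Log2 signal of PPP3CC minus that of PPP3CB on each array, left against the brighter PPP3CB probe set and right against the dimmer one; points are samples, named beside them, and lines are group means. The Boxers lie above the controls in both panels. On the left, Dobermans L (4.90) and R (3.60) lie far above the controls, and K is at 1.06 beside Boxers of 0.70 to 0.84. On the right, Doberman L lies below controls P1 and P9.

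PPP3CA and PPP3R1, the other subunits on the array, had 4 and 2 probe sets, of which 3 and 1 were tested. PPP3R2 had no probe set with its symbol. The untested ones, 1 of each gene, had signals of 3.2 to 54.8 (PPP3CA) and 3.9 to 28.3 (PPP3R1), under the filter level on every array. PPP3CA, the alpha catalytic subunit, had its highest signal on 1606083_at. This was 1193, 1254 and 1400 in the controls, 1349, 1015 and 1428 in the paced mongrels, 1428, 2136 and 1133 in the Dobermans and 1836, 1935, 1764 and 1977 in the Boxers. The Boxers lay above all controls, at 0.55 ± 0.20 (log2, SE), without passing (adjusted p = 0.570), as did 6.32% of probe sets. They also lay above all paced mongrels, at 0.58 ± 0.20 (adjusted p = 0.0643), as did 16.4% of probe sets. No comparison passed on this probe set, though that of the Boxers with the paced mongrels did in 5 of 16 alternatives.

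On a second PPP3CA probe set, 1582860_at, Dobermans K, L and R were at 387, 18.5 and 17.7, against 204 to 460 in the controls and 294 to 384 in the Boxers. As on PPP3CB 1604261_at, L and R lay far below all other arrays, while K was here within the range of the controls. The Dobermans were at -2.12 ± 0.69 against the controls (adjusted p = 0.0402) and at -2.22 ± 0.65 against the Boxers (adjusted p = 0.0205). Since L and R were under the filter level, the sizes depend on the pseudocount, and were -1.42 and -1.50 with 64 and -2.63 and -2.74 with 1. Without L and R the values were 0.25 and 0.15, and the call against the controls was lost in 5 of the 6 fits without a single array. On the third, 1589078_at, the Dobermans stood at -0.55 ± 0.27 relative to the controls (adjusted p = 0.133). PPP3R1, the regulatory subunit, passed in no comparison on its tested probe set 1604857_at. Its signal was 778, 890 and 315 in the controls, 676, 683 and 779 in the paced mongrels, 516, 494 and 350 in the Dobermans and 483, 388, 581.5 and 251 in the Boxers. Both breeds lay below the paced mongrels without overlap, at -0.65 ± 0.36 and -0.78 ± 0.34 (adjusted p = 0.195 and 0.122, the latter 0.0321 in the fit of Boxers and paced mongrels alone), as did 15.3% and 26.9% of all tested probe sets, and overlapped with the controls.

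**Figure D5:**
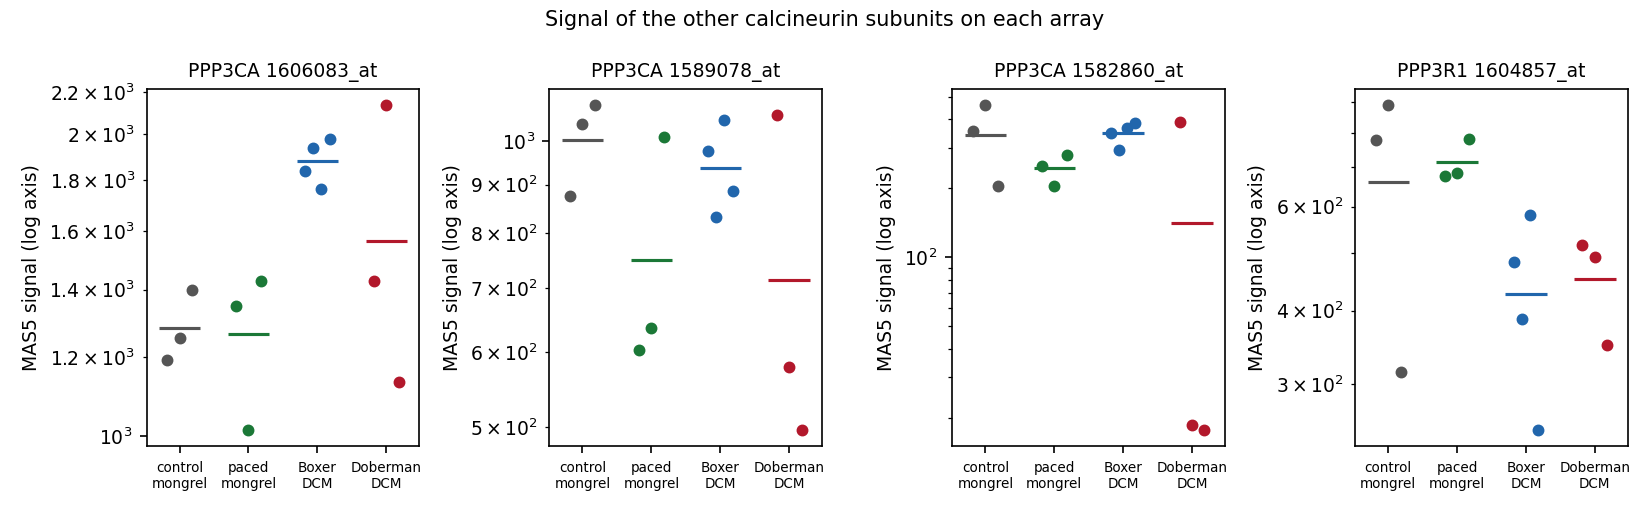
MAS5 signal (log axis) of the 3 tested PPP3CA probe sets and the tested PPP3R1 probe set, by group; points are samples and lines are group means. On PPP3CA 1582860_at, 2 Dobermans lie near 18 while the third is at 387, and on 1606083_at the Boxers lie above the controls.

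Genes that act with calcineurin were taken from fixed lists, each gene by its tested probe set of highest mean signal. The alternatives were examined for the calcineurin subunits and not for these genes. Their calls in the Dobermans were therefore not checked without L and R or with the GAPDH ratio as a covariate. Over all 5242 genes, 624 rose and 734 fell in the Dobermans against the controls, 1 rose and 2 fell in the Boxers, and 268 rose and 212 fell in the paced mongrels. Between the breeds, 881 were higher and 909 lower in the Dobermans. Against the paced mongrels, 708 were higher and 579 lower in the Dobermans, and 306 were higher and 435 lower in the Boxers. In either direction, the shares against the controls were 25.9% (Dobermans), 0.0572% (Boxers) and 9.16% (paced mongrels). They were 34.1% between the breeds, and against the paced mongrels 24.6% (Dobermans) and 14.1% (Boxers). Of 3 tested genes upstream, none passed against the controls. These included CALM2 and CALM3, which encode calmodulin, at -0.10 ± 0.20 and 0.16 ± 0.19 (log2, SE) in the Dobermans. CIB1, a calcium-binding protein that anchors calcineurin at the muscle membrane in mice, was lower in the Dobermans than in the Boxers (-0.66 ± 0.24, adjusted p = 0.0442).

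Inhibitors, anchors and regulators of calcineurin had 6 tested genes. MYOZ1, a calsarcin that binds calcineurin at the Z-disc, rose in the Dobermans by 1.27 ± 0.40 against the controls (adjusted p = 0.0346). LMCD1, a LIM protein that raises calcineurin activity in mouse heart, was lower in the Dobermans than in the Boxers (-1.02 ± 0.26, adjusted p = 0.0120). CHP1, a calcineurin-like calcium-binding protein that inhibits the enzyme, was higher in the Boxers than in the paced mongrels (0.50 ± 0.16, adjusted p = 0.0477), and its other probe set was at 0.14 without passing. None of the 6 passed in the Boxers or the paced mongrels against the controls.

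NFATC3 was the tested member of the NFAT family, the transcription factors that calcineurin activates. It stood at -0.68 ± 0.29 in the Dobermans, -0.39 ± 0.27 in the Boxers and -0.82 ± 0.29 in the paced mongrels (log2 against the controls, SE), with adjusted p of 0.091, 0.818 and 0.078. A list of kinases that return NFAT proteins to the cytoplasm or act beside them also held HOMER2 and HOMER3, which are not kinases. Of its 7 tested genes, 1 passed in any comparison. This was DYRK2, which fell in the Dobermans (-0.72 ± 0.20, adjusted p = 0.0233), and its other probe set stood at 0.43 without passing.

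Partners and targets of calcineurin signalling in muscle had 9 tested genes. Against the controls, 1 fell and 0 rose in the Dobermans, 0 passed in the Boxers, and 3 rose and 0 fell in the paced mongrels, where PPP3CC did not pass. In the paced mongrels ACTA1, skeletal actin, rose by 2.88 ± 0.37 (adjusted p = 0.0011), although of its 3 other probe sets 1 passed as higher and 1 as lower. CACNA1C, the L-type calcium channel, rose by 1.13 ± 0.23 (adjusted p = 0.0085), and DNM1L, a mitochondrial fission protein that calcineurin dephosphorylates, by 0.65 ± 0.19 (adjusted p = 0.0379), with its other probe set at 0.04. PPARGC1A, a coactivator of mitochondrial genes, fell in the Dobermans (-0.59 ± 0.20, adjusted p = 0.041). Against the paced mongrels, 2 rose and 3 fell in the Dobermans and 0 rose and 3 fell in the Boxers. Those that fell in the Boxers were ACTA1 (-2.25 ± 0.35), CACNA1C (-1.37 ± 0.22) and MEF2C, a muscle transcription factor (-0.75 ± 0.24). ACTA1 also fell in the Dobermans (-2.91 ± 0.37), where of its 3 other probe sets 2 passed as lower and 1 as higher. DNM1L fell there too (-0.85 ± 0.19), as did its other probe set. MYH7, the slow myosin heavy chain, was 0.87 ± 0.26 higher in the Dobermans than in the paced mongrels, but of its 5 other probe sets 1 passed as higher and 2 as lower.

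The other serine/threonine phosphatases gave 7 tested catalytic subunits. In the Dobermans against the controls 0 rose and 2 fell (28.6%, beside 25.9% of all genes in either direction). They were PPP2CB of phosphatase 2A (-1.14 ± 0.27, adjusted p = 0.0145) and PPP1CB of phosphatase 1 (-3.00 ± 0.91, adjusted p = 0.0319). The Dobermans overlapped with the controls on PPP1CB, with signals of 916 ± 1377 (SD, n = 3) against 2427 ± 168 (SD, n = 3). Against the Boxers these fell as well, and so did PPP1CC (-0.60 ± 0.19, adjusted p = 0.0284). That made 3 of 7 (42.9%, beside 34.1% of all genes in either direction). In the Boxers and in the paced mongrels none of the 7 passed against the controls. The median of the 7 was -0.52 in the Dobermans, 0.07 in the Boxers and -0.23 in the paced mongrels, beside medians over all genes of 0.04, -0.02 and -0.04.

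The genes most like each member over the 13 arrays were ranked by Pearson's r of log2 values, as a description that carries the group means and array quality with it. For PPP3CC these were FBXO9, part of a ubiquitin ligase (r = 0.911), UCHL1, a deubiquitinase (0.910), ITSN2, an endocytic adaptor (0.907), SLC20A1, a phosphate transporter (0.871), and APEX1, a DNA repair enzyme (0.863). With group means removed, r was between 0.325 (APEX1) and 0.713 (ITSN2). Without the 2 arrays farthest from the PPP3CC median, P4 and LV04, r was between 0.781 and 0.933. UCHL1 stood at 2.16 in the Dobermans, 1.70 in the Boxers and -0.76 in the paced mongrels, relative to the controls on the log2 scale.

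For PPP3CB 1604261_at the nearest genes were TMEM59, a Golgi membrane protein (r = 0.988), CHMP5, of the ESCRT machinery (0.984), YAE1 (0.983), CISD1, an iron-sulfur protein of the outer mitochondrial membrane (0.981), and SF3A3, a splicing factor (0.979). These rested in part on Dobermans L and R, without which r was between 0.689 (SF3A3) and 0.849 (TMEM59) over 11 arrays. All 5 were lower in the Dobermans than in the controls, by 0.81 (SF3A3) to 2.05 (CISD1) on the log2 scale. PPP3CC and PPP3CB 1604261_at had an r of -0.273 with each other over the 13 arrays and 0.516 over the 11 without L and R.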

How the data were processed

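Canine Affymetrix arrays measured the RNA of 13 dog hearts. The deposited values are signal intensities from MAS5 (version not stated in the labels), per the submitters' processing notes, and each array had a trimmed mean of 500 (2% trimmed at each end). Tests used log2(signal + 16). After removal of 77 control probe sets, those with a mean under the 40th percentile (6.95) were dropped, which left 14302. The platform annotation gave 1 symbol to 10549 probe sets and several to 138.

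A model with 1 mean per group covered the 13 arrays together (limma 3.58.1, R 4.3.3, intensity trend), and Benjamini-Hochberg adjustment covered all tested probe sets. The labels do not say how animals relate, so p-values measure the spread between these samples, whose number limits the precision.

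All tested subunit probe sets were named, with the 5 genes most like each member. Up to 4 passing genes of each list and comparison were selected, and not all of these are named here. CALM2, CALM3, NFATC3 and the markers RYR2, DCN, COL3A1, TYROBP, LYZ, CD3E and NKG7 were named after their values were seen. The 8 pathway lists held 81 genes, 37 tested (0 of 8 calmodulin-dependent kinases), and 11 marker lists checked the tissue. Members, lists and alternatives were chosen with earlier results of these data known, and the division of arrays by median signal after seeing the data. The fit was tested on simulated data that had the same spread in every group and no differences in array quality. That test therefore cannot show how the fit deals with the wide Doberman spread or the array differences.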

Additional observations from a re-analysis of the deposited data

Results flagged for a closer look

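PPP3CB 1604261_at was lower in Boxer 4 (1013) than in the other 3 Boxers (1348 to 1388). That gap was 0.907 of the range of the group, and chance alone marks about 1 in 20 groups in this way. PPP3CC was lowest in Boxer 4 too, at 1832, without such a gap.

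The difference from the controls was not the same in every group, by the contrast between the groups themselves (limma, log2 scale). PPP3CB 1604261_at stood at -2.36 in the Dobermans relative to the Boxers, and PPP3CA 1582860_at at -2.22. PPP3CC lay 1.22 higher in the Dobermans and 1.18 higher in the Boxers than in the paced mongrels. PPP3CB 1605601_at lay 1.23 higher in the Dobermans than in the paced mongrels.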

How the results depend on the processing

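All values are log2 differences, with the adjusted p after them where given. PPP3CC in the Boxers against the paced mongrels passed under all 16 alternatives. These 2 groups lie wholly in different sets of arrays by median signal, and the alternatives cannot tell group from array set. The sample numbers differ between groups. No paired analysis was possible because the groups compared share no replicate number.

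Leaving out single arrays gave PPP3CC 0.87 to 1.16 in the Dobermans, 0.92 to 1.09 in the Boxers and -0.37 to 0.011 in the paced mongrels against the controls, and -0.13 to 0.15 between the breeds (Dobermans minus Boxers). PPP3CB 1604261_at against the controls ranged over -3.26 to -1.40 (Dobermans) and -0.030 to 0.16 (Boxers), and from -2.67 to -0.81 in the Dobermans against the paced mongrels, where it passed without K. For results of which the sign turned, the ranges were -0.096 to 0.074 (PPP3CB 1605601_at, Boxers against controls), -0.0082 to 0.44 and -0.13 to 0.12 (PPP3CA 1606083_at, Dobermans and paced mongrels against controls), -0.21 to 0.34 (PPP3CA 1582860_at, Boxers against controls), -0.43 to 0.12 (PPP3CA 1589078_at, Dobermans against paced mongrels), -0.22 to 0.51 (PPP3R1, paced mongrels against controls) and -0.093 to 0.30 (PPP3R1, Dobermans minus Boxers).

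Without Dobermans L and R together, K is a lone array assumed to vary like the other groups, and the difference from the controls was 0.81 (0.133) for PPP3CC, -0.42 (0.362) for PPP3CB 1604261_at, -0.0041 for PPP3CB 1605601_at, 0.25 for PPP3CA 1582860_at and 0.092 for 1589078_at. From the Boxers it was -0.19, -0.47 (0.268), 0.15 and 0.19 for PPP3CC, PPP3CB 1604261_at, PPP3CA 1582860_at and 1589078_at. From the paced mongrels it was 0.17, 0.64 and 0.54 for the last 3 of these.

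With the GAPDH ratio as a covariate, the Dobermans minus controls gave 0.76 (0.200) for PPP3CC, -1.16 (0.421) for PPP3CB 1604261_at and 0.017 for PPP3CA 1589078_at. Minus the Boxers they gave -0.26, -1.16 (0.380) and 0.14. Minus the paced mongrels, PPP3CC gave 0.91 (0.0729), PPP3CA 1582860_at 0.43 and 1589078_at 0.53. PPP3CB 1604261_at in the Boxers minus the controls was -0.0025.

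Fitting the compared groups only left each value as it was. PPP3CC no longer passed in the Dobermans against the controls (1.04, 0.112) or the paced mongrels (1.22, 0.0531), nor did PPP3CB 1604261_at against the controls (-2.32, 0.129), PPP3CB 1605601_at against the paced mongrels (1.23, 0.134) or PPP3CA 1582860_at against the controls (0.170) and the Boxers (0.0690). Newly past the threshold were PPP3CC in the Boxers against the controls (1.00, 0.0325), and PPP3CB 1604261_at in the paced mongrels against the controls (-0.59, 0.0312) and in the Boxers against the paced mongrels (0.64, 0.0137). In that last comparison PPP3R1 (-0.78, 0.0321), PPP3CA 1606083_at (0.58, 0.0103) and PPP3CA 1582860_at (0.49, 0.0464) also passed. With array weights, those that newly passed included PPP3CC in the Boxers (1.05, 0.012) and PPP3CB 1604261_at in the Boxers (0.67, 0.0463) and the Dobermans (-2.05) against the paced mongrels. The last also passed with quantile normalization (-2.01), pseudocount 64 (-1.44) and no filter (-1.72).

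Median centring gave PPP3CC 0.60 (0.0695) in the Dobermans and -0.69 (0.0418) in the paced mongrels against the controls, and -0.47 between the breeds. Signs also turned for PPP3CB 1605601_at in the Boxers minus the controls (quantile 0.055, centring 0.052, array weights 0.013) and in the Dobermans minus the Boxers (quantile -0.034, centring -0.049). They turned for PPP3CA 1606083_at in the Dobermans (centring -0.20) and paced mongrels (quantile 0.085) against the controls. For PPP3R1 they turned in the paced mongrels minus the controls (centring -0.28) and in the Dobermans minus the Boxers (quantile -0.13, centring -0.38, array weights -0.082). PPP3CC minus PPP3CB in the Dobermans minus the Boxers was 2.40, and -0.42 with the dimmer PPP3CB probe set.

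Over these alternatives the number of probe sets passing ran from 20 to 7349 (Dobermans against controls), 3 to 254 (Boxers against controls), 220 to 4389 (paced against controls), 56 to 8110 (Dobermans against Boxers), 524 to 6183 (Dobermans against paced) and 407 to 5720 (Boxers against paced). Of the calls in the Dobermans against the controls, 56.2% were higher, and 39.5% and 14.0% after quantile normalization and median centring. The same 3 shares were 33.3%, 16.7% and 28.6% (Boxers against controls), 69.4%, 42.6% and 13.5% (paced against controls), 61.5%, 42.1% and 15.8% (Dobermans against Boxers), 53.0%, 52.2% and 67.2% (Dobermans against paced) and 27.4%, 58.4% and 87.7% (Boxers against paced). PPP3CC minus the median of all probe sets, which centring cannot change, was 0.85 in the Dobermans against the controls, and 1.16 after quantile normalization. The cause of these changes was not tested.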
